A study of Bos taurus with 27 samples.

Results

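Cholesterol synthesis genes were measured in the rumen epithelium (RE), the layered lining through which volatile fatty acids leave the rumen, of Japanese Black cattle during long fattening on a grain diet. The genes were HMGCS1, IDI1, FDFT1, SQLE, LSS, DHCR7 and SREBF2, chosen by name among the genes on a bovine oligonucleotide array. Each of the 7 had 1 probe among 15008 probes that were not controls and that carried 14952 gene names. The same 9 castrated and fistulated cattle of this single breed were biopsied at the ventral sac of the rumen in the early, middle and late fattening stages (10 to 14, 15 to 22 and 23 to 30 months of age), at 14, 21 and 29 months. The diet was concentrate with rice straw. The methods give a different ratio of forage to concentrate for each stage, so that age, diet and stage changed together. There was no group without the grain diet, and the stages were compared within animals. Each biopsy gave 1 one-color array (cyanine 3), so that there were 27 arrays, 9 at each stage.

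Cholesterol is built from acetyl-CoA through mevalonate, isoprenoid units and squalene, which is closed into lanosterol and then trimmed to cholesterol. HMGCS1 makes HMG-CoA at the start of the route, and IDI1 interconverts the isoprenoid units from which longer chains are joined. FDFT1 joins farnesyl units to squalene, SQLE oxidizes squalene, LSS closes the ring to lanosterol, and DHCR7 carries out a late reduction of the sterol ring. SREBF2 encodes the membrane-bound transcription factor SREBP2, which is released when sterols are low and raises transcription of the enzymes and of genes for cholesterol uptake. In a stratified epithelium cholesterol is also a component of the lipid barrier between the upper cell layers. None of the 7 genes encodes a receptor or transporter for cholesterol, and genes of uptake are described from a separate list.

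The probes were 60 bases long, and the sequences of 4 are shown because their place in the transcript differs. The probes of IDI1 and LSS lie in coding sequence, and those of HMGCS1 and DHCR7 reach the end of the transcript, where only the last 30 bases are given with the AATAAA signal for polyadenylation in capitals.
HMGCS1, chr20:31475481-31475540, + strand: gtgggtaactttgAATAAAgttttagagaa
IDI1, chr13:46685285-46685344, + strand: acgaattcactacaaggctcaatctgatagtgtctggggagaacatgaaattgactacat
LSS, chr1:147625737-147625796, - strand: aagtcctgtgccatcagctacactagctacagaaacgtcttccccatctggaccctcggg
DHCR7, chr29:48930327-48930386, - strand: ggacttctgtgtcacAATAAAgcaagtctc
The probes of FDFT1 (chr8:7427790-7427849, - strand), SQLE (chr14:16723414-16723473, - strand) and SREBF2 (chr5:113415488-113415547, + strand) were located in the same way, all by the coordinates that the array output gives on build UMD 3.1. AATAAA or ATTAAA was present in the last 30 bases of 3 of the 7 probes on the strand of the probe, those of HMGCS1, FDFT1 and DHCR7, and in 10.4% of all 15008 probes.

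Levels are log2 of the processed intensity, from which the scanner software had subtracted the background, minus the median log2 intensity of the array. Arrays of the middle stage were dim. Their brightness is given by the median processed signal, which ranged from 34.5 to 47.6 linear intensity units in the early stage (median 38.5), from 8.06 to 28.1 in the middle stage (median 16.4) and from 31.4 to 46.0 in the late stage (median 38.7). Probes that the software called well above background made up 68.8 to 78.1%, 48.5 to 71.5% and 68.4 to 73.7% in the 3 stages. The arrays lay on 5 slides. Slide 1 held 8 early arrays, slide 2 held 1 early array (animal 9) and 7 middle arrays, slide 3 held 2 middle arrays, and slides 4 and 5 held the late arrays, so that slide and stage cannot be told apart for any comparison with the late stage.

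**Figure D1:**
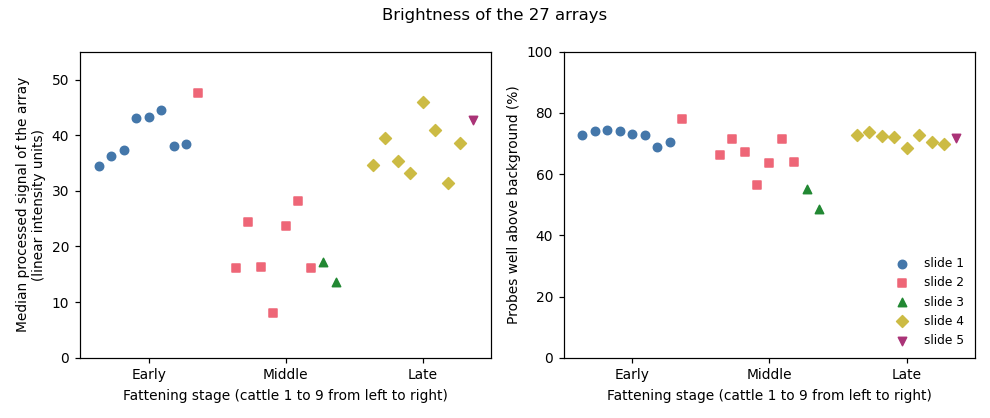
Median processed signal (left, linear intensity units) and share of probes well above background (right, %) of each of the 27 arrays, by stage and animal, with the slide given by color and symbol. All 9 middle arrays had a lower median signal (8.06 to 28.1) than every early (34.5 to 47.6) and late array (31.4 to 46.0).

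The tissue was checked against marker genes. Of 12 measured markers of stratified epithelium, 9 were well above background on all 27 arrays, with KRT6A the brightest and KRT4 well above background on 0 arrays. Because the sample labels describe RNA extraction from other tissues, markers of hepatocytes and neutrophils were included. ALB was well above background on 0 arrays, TF on 3, FGB on 3 and S100A9 on 2, whereas CSF3R was so on 22 and S100A8, which stratified epithelia also express, on all 27. Brightest among the other marker lists were ACTA2 for smooth muscle, COL1A2 for fibroblasts, VWF for endothelium and CD14 for leukocytes, and CDH5 and CD79A, which mark endothelium and B cells, were well above background on 0 and 1 arrays.

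Mean levels of the marker lists differed between stages, and differences of whole lists were not tested. The mean level of the 12 epithelial markers was 4.78 ± 0.24 in the early, 4.33 ± 0.46 in the middle and 4.77 ± 0.24 in the late stage (SD, n = 9 cattle each). For the 6 smooth muscle markers it was 1.39 ± 0.77, 2.02 ± 1.01 and 1.00 ± 0.38, and for the 6 fibroblast markers 3.89 ± 0.66, 4.10 ± 0.83 and 3.86 ± 0.55. Epithelial markers were thus lowest and muscle and fibroblast markers highest on average in the middle stage, with wide overlap between cattle. From the early to the middle stage 5 of 12 epithelial, 6 of 6 smooth muscle and 5 of 6 fibroblast markers had estimated changes above 0. All probes had a median log2 change of 0.32 in this step, so that more of them lay above 0 than below. The medians of the 3 marker lists were −0.25, 0.47 and 0.47. At the threshold given below 7 of 12 epithelial markers were called (1 higher, 6 lower). Called were also 3 of 6 smooth muscle (3 higher, 0 lower) and 2 of 6 fibroblast markers (1 higher, 1 lower). Of all probes 66.5% were called, 45.3% higher and 21.3% lower. The 5 endothelial markers were at 0.84 ± 0.20, 0.90 ± 0.51 and 0.49 ± 0.25, and the 6 leukocyte markers at 0.19 ± 0.39, 0.24 ± 0.35 and −0.05 ± 0.28. The 6 hepatocyte and neutrophil markers, of which 4 were dim on nearly all arrays, were at −1.07 ± 0.25, −0.05 ± 0.44 and −1.38 ± 0.34. In these bulk biopsies fewer cells of a type and less RNA per cell cannot be told apart, and the part of the marker changes in the results below was not tested.

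Changes are given for the first period (early to middle stage), the second period (middle to late stage) and the total period (early to late stage), estimated together by limma with an effect for each animal. A gene with a Benjamini-Hochberg adjusted *P* below 0.05 over all 15008 probes is called a differentially expressed gene (DEG). In the first period 3 of the 7 genes were DEGs, HMGCS1, FDFT1 and SREBF2, all higher. Of all probes 66.5% were DEGs in this period, 45.3% higher and 21.3% lower. In the second period 3 of the 7 were DEGs, IDI1 and LSS higher and SREBF2 lower, against 71.5% of all probes, 27% higher and 44.6% lower. In the total period IDI1, LSS and DHCR7 were DEGs, all 3 higher, against 20.1% of all probes, 11.2% higher and 8.93% lower. The periods share arrays (the middle arrays serve the first and the second), so that their values are given side by side and not set against each other.

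The zero of the scale also moved. Over all probes the log2 fold change had a median of 0.32 in the first, −0.27 in the second and 0.03 in the total period. For the 6797 bright probes, those that every array showed well above background, the medians were 0.08, 0.10 and 0.14. Called changes of the 7 genes are therefore also given relative to these medians, whereas changes of list genes are not and should be read beside them.

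**Figure D2:**
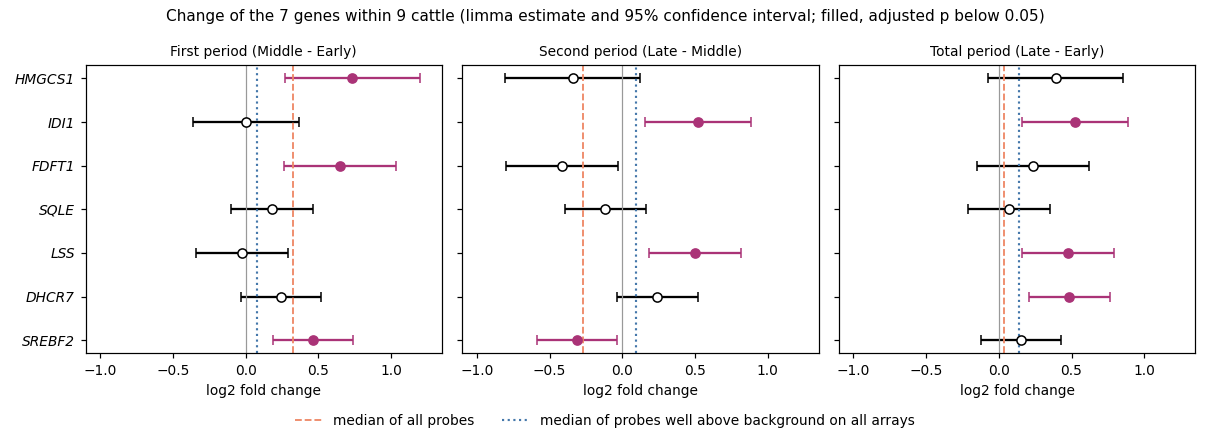
Log2 fold change of the 7 genes in each period (limma estimate with 95% confidence interval, 9 cattle; filled symbols, adjusted *P* below 0.05), with the median of all probes (dashed) and of the 6797 bright probes (dotted). HMGCS1, FDFT1 and SREBF2 lie to the right of both medians in the first period, and IDI1, LSS and DHCR7 in the total period.

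HMGCS1, at the head of the route, had levels of 3.44 to 4.86 (median 3.91) in the early stage, 4.34 to 5.41 (median 4.84) in the middle stage and 3.86 to 5.73 (median 4.31) in the late stage. Early levels were split, with animals 1, 2 and 6 high and animals 5, 7 and 9 low, and in the middle stage animals 4, 5 and 8 were lowest. The late level of animal 7 stood above the late levels of the other cattle, and all stages overlapped. HMGCS1 rose 1.66-fold in the first period (log2 fold change 0.73 ± 0.22 SE, 95% interval 0.27 to 1.2, limma adjusted *P* = 0.00718), and was higher in 9 of 9 cattle. This was 0.41 above the median of all probes and 0.66 above that of the bright probes. In the second period the log2 fold change was −0.34 ± 0.22 (adjusted *P* = 0.174, lower in 8 of 9 cattle) and in the total period 0.39 ± 0.22 (adjusted *P* = 0.233, higher in 6 of 9), so that in this fit the late level was not separated from either of the other stages. The second-period change was called as lower under 4 of 14 alternatives, among them 75th percentile scaling (−0.53, limma adjusted *P* = 0.037). Without animal 7 the second-period change was −0.50 and called (adjusted *P* = 0.0194), and the total-period change was 0.15 (adjusted *P* = 0.624).

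Slide could be separated from stage only weakly in the first period. Slide 2 holds 1 early array, that of animal 9, whose early HMGCS1 level was among the lowest, and a fixed slide effect is taken from animals 8 and 9 alone, so that these fits cannot set the changes of HMGCS1, FDFT1 and SREBF2 apart from slide. Within slide 2 alone, with the 1 early array against 7 middle arrays, the log2 fold change was 1.21, with slide as a fixed block it was 1.62, and on the first scan day alone, a comparison chosen after seeing the data, it was 0.64 and called. The adjusted *P* ran from 0.00264 to 0.769 over 17 alternatives, and the call was lost in the first 2 of these fits and under normexp background correction (0.11).

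**Figure D3:**
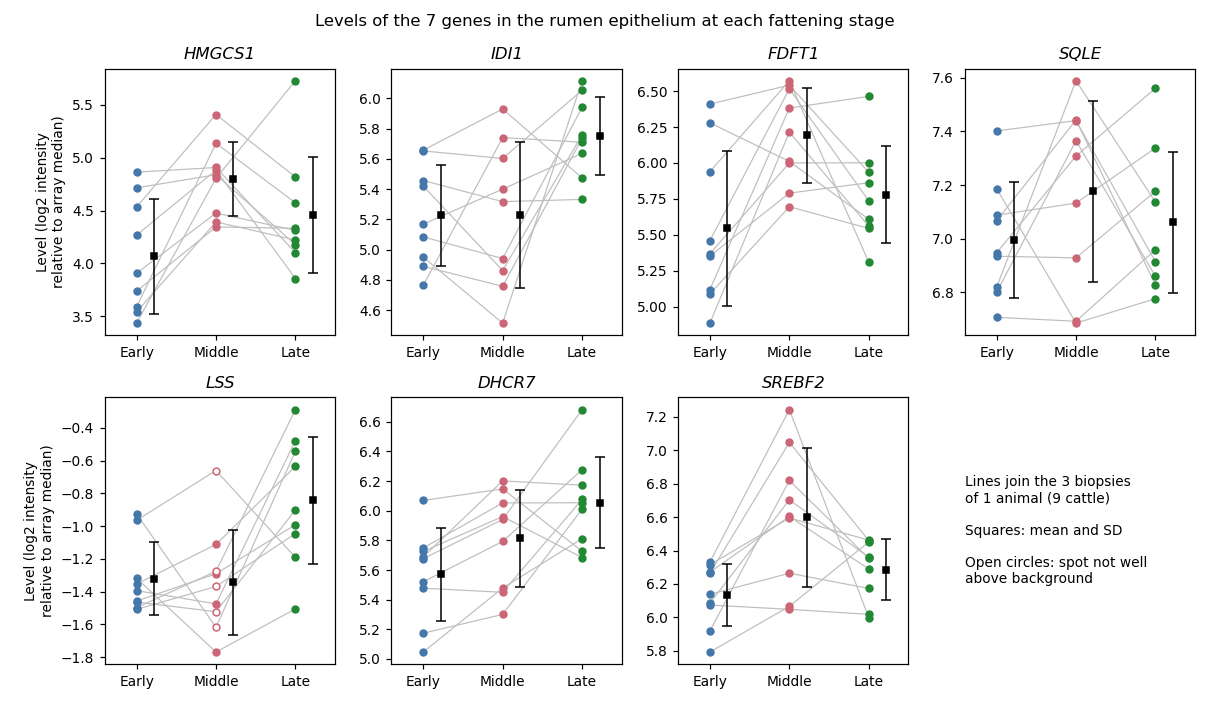
Level of each of the 7 genes in the 9 cattle at each stage (log2 intensity relative to the array median), with lines joining the biopsies of an animal, squares with bars for the mean and SD, and open circles for spots not well above background. HMGCS1, FDFT1 and SREBF2 peak in the middle stage on average, IDI1, LSS and DHCR7 are highest in the late stage, and the ranges of all stages overlap.

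IDI1, the isomerase of the isoprenoid units, had levels of 4.76 to 5.66 (median 5.17) in the early stage, 4.51 to 5.93 (median 5.32) in the middle stage and 5.33 to 6.12 (median 5.74) in the late stage. Middle levels were spread widest, with animals 2 and 9 high and animals 5, 6 and 7 low, whereas the late biopsies lay close together above most of the early ones. In the first period the log2 fold change was 0.00 ± 0.18 (adjusted *P* = 0.991), with 3 cattle higher and 6 lower, and its sign turned under several alternatives, normexp (−0.51) among them. IDI1 rose in the second period by 0.52 ± 0.18 on the log2 scale, or 1.44-fold (limma adjusted *P* = 0.0123, 7 of 9 cattle), 0.79 above the median of all probes and 0.42 above that of the bright probes. In the total period it also rose by 0.52 ± 0.18 (95% interval 0.16 to 0.89, adjusted *P* = 0.0407, 7 of 9 cattle), 0.49 above the median of all probes and 0.39 above that of the bright probes.

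The calls of IDI1 rested on the scaling. Relative to the 75th percentile of each array the log2 fold change was 0.33 in the second (adjusted *P* = 0.0771) and 0.40 in the total period (adjusted *P* = 0.0974), and over all alternatives the adjusted *P* ran from 0.00166 to 0.289 and from 0.0217 to 0.758. The log2 fold change itself ran from 0.33 to 1.26 (with normexp) in the second and from 0.34 to 0.75 in the total period. Without animal 6 the second-period change was 0.39 (adjusted *P* = 0.0522), and leaving out any 1 of animals 1, 4, 5, 6, 7, 8 and 9 ended the call in the total period, with changes of 0.44 to 0.61 and adjusted *P* values up to 0.102 over the 9 fits.

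FDFT1, which commits the route to squalene, had levels of 4.88 to 6.41 (median 5.37) in the early stage, 5.70 to 6.57 (median 6.21) in the middle stage and 5.31 to 6.46 (median 5.74) in the late stage. Animals 1, 2 and 3 were high in the early stage and animal 9 was lowest, animals 4 and 5 were lowest in the middle stage, and animal 7 was highest in the late stage. FDFT1 rose 1.57-fold in the first period (log2 fold change 0.65 ± 0.18, 95% interval 0.26 to 1.03, limma adjusted *P* = 0.00482), in 8 of 9 cattle. This was 0.32 above the median of all probes and 0.57 above that of the bright probes. The second period gave −0.41 ± 0.18 (adjusted *P* = 0.0524, lower in 6 of 9) and the total period 0.24 ± 0.18 (adjusted *P* = 0.414, higher in 6 of 9).

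Within slide 2 alone the first-period change of FDFT1 was 1.26 (adjusted *P* = 0.195), with slide as a fixed block 0.76 (adjusted *P* = 0.603) and on the first scan day alone 0.49 (adjusted *P* = 0.0422), in a range of 0.00109 to 0.603 over 17 alternatives that also held normexp (0.23, not called). The second-period change was called as lower under 8 of 14 alternatives, among them 75th percentile scaling (−0.60, adjusted *P* = 0.00536) and quantile normalization (−0.54, adjusted *P* = 0.0101), in a range of 0.00158 to 0.560, and turned to 0.22 with normexp. It was also called when any 1 of animals 4, 6 and 7 was left out, with adjusted *P* values from 0.0280 to 0.155 over the 9 fits.

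SQLE, the oxidase of squalene, was not a DEG in any period. Its levels ran from 6.71 to 7.40 in the early, 6.69 to 7.59 in the middle and 6.78 to 7.56 in the late stage, and the 3 medians were 6.95, 7.31 and 6.96. Animal 1 was highest and animal 5 lowest in the early stage, animals 2 and 5 were lowest in the middle stage, and animal 7 was highest in the late stage, with overlap between all stages. The log2 fold changes were 0.18 ± 0.13 (95% interval −0.10 to 0.46, adjusted *P* = 0.241), −0.12 ± 0.13 (−0.40 to 0.17, adjusted *P* = 0.452) and 0.07 ± 0.13 (−0.22 to 0.35, adjusted *P* = 0.796). The second-period change was called as lower under 4 of 14 alternatives, among them 75th percentile scaling (−0.30, adjusted *P* = 0.0436), in a range of 0.0223 to 0.909. The first-period sign turned with normexp (−0.24) and with slide as a fixed block (−0.16), and the second-period sign with normexp (0.58). In the total period 75th percentile scaling (−0.05) and quantile normalization (−0.11) turned it.

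LSS, the cyclase that makes lanosterol, was dim. Its processed signal had a median of 15.2 linear units in the early, 7.15 in the middle and 21.6 in the late stage, and its spot was well above background on 9, 4 and 9 of the 9 arrays. Levels were −1.51 to −0.93 (median −1.39) in the early, −1.77 to −0.66 (median −1.37) in the middle and −1.51 to −0.29 (median −0.90) in the late stage. Most late biopsies lay above most early ones, but animal 2 was low in the late stage, and the highest middle level, of animal 9, came from a spot not well above background. The first period gave −0.02 ± 0.15 (adjusted *P* = 0.901) with 5 of 9 cattle higher, and the sign turned with 75th percentile scaling (0.04) and normexp (0.14, called).

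LSS was called higher in the second period (log2 estimate 0.50 ± 0.15, limma adjusted *P* = 0.00607, 8 of 9 cattle), but with only 4 of 9 middle spots well above background this is not a measured size, and neither a fold nor a relative value is given. In the total period LSS rose by 0.48 ± 0.15, or 1.39-fold (95% interval 0.16 to 0.79, adjusted *P* = 0.0307, 7 of 9 cattle). The total-period rise, between 2 stages in which the spot was bright enough on every array, was 0.44 above the median of all probes and 0.34 above that of the bright probes. With 75th percentile scaling the changes were 0.32 (adjusted *P* = 0.0641) and 0.36 (adjusted *P* = 0.101), and with normexp −0.06 and 0.08, neither called, in ranges of adjusted *P* from 0.00108 to 0.387 and from 0.0148 to 0.798. Leaving out any 1 of animals 1, 3, 4, 5, 6 and 8 also ended the total-period call, with changes of 0.39 to 0.57 and adjusted *P* values up to 0.0892 over the 9 fits.

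DHCR7, the reductase near the end of the route, had levels of 5.05 to 6.07 (median 5.68) in the early stage, 5.30 to 6.20 (median 5.94) in the middle stage and 5.68 to 6.68 (median 6.05) in the late stage. Animals 4 and 5 were lowest in the early stage and among the lowest in the middle stage, and the late level of animal 7 lay above the rest. Neither step alone passed the threshold in the limma model. The first period gave 0.24 ± 0.13 on the log2 scale (adjusted *P* = 0.110, higher in 8 of 9 cattle), and the second also gave 0.24 ± 0.13 (adjusted *P* = 0.109, 6 of 9). Without animal 2 the second-period change was 0.32 and called (adjusted *P* = 0.0308), and the first-period sign turned with normexp (−0.18). Over 14 alternatives the second-period change ran from 0.05 to 0.95 and was called under 1 of them, normexp. The first-period change was called as higher under 4 of 17 alternatives, among them 75th percentile scaling (adjusted *P* = 0.0420) and the paired test of the methods (adjusted *P* = 0.00789), in a range of 0.00789 to 0.903. Over the total period DHCR7 rose 1.4-fold (0.49 ± 0.13, 95% interval 0.21 to 0.76, limma adjusted *P* = 0.0138, 7 of 9 cattle), 0.45 above the median of all probes and 0.35 above that of the bright probes. It kept this call without any 1 animal, but lost it with 75th percentile scaling (0.36, adjusted *P* = 0.0567) and quantile normalization (0.32, adjusted *P* = 0.123), in a range of 0.00738 to 0.623 over 14 alternatives.

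SREBF2, which encodes the regulator of the route, had levels of 5.79 to 6.33 (median 6.14) in the early stage, 6.05 to 7.24 (median 6.60) in the middle stage and 6.00 to 6.46 (median 6.35) in the late stage. The middle stage was both highest and most spread, with animals 1 and 8 high and animals 2, 5 and 6 within the early range. SREBF2 rose 1.38-fold in the first period (0.47 ± 0.13, 95% interval 0.19 to 0.74, limma adjusted *P* = 0.00442, 8 of 9 cattle), 0.14 above the median of all probes and 0.39 above that of the bright probes. It fell 1.24-fold in the second period (−0.31 ± 0.13, 95% interval −0.59 to −0.04, adjusted *P* = 0.0391, lower in 8 of 9), 0.04 below the median of all probes and 0.41 below that of the bright probes. The total period gave 0.15 ± 0.13 (adjusted *P* = 0.465), which did not pass the threshold.

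The first-period change of SREBF2 was 0.56 within slide 2 alone (adjusted *P* = 0.496), 0.33 with slide as a fixed block (adjusted *P* = 0.783) and 0.34 on the first scan day alone (adjusted *P* = 0.0586), and turned to −0.12 with normexp, in a range of 0.000896 to 0.783 over 17 alternatives. The second-period fall was not called without any 1 of animals 1, 3, 7, 8 and 9 (−0.40 to −0.20 and adjusted *P* up to 0.153 over the 9 fits), without the 3 dimmest middle arrays (−0.18, adjusted *P* = 0.207) or with the methods' t test, and turned to 0.46 with normexp, in a range of 0.000303 to 0.207. It was also not called with only the 2 stages compared, and was called under 8 of 14 alternatives.

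Which of the 7 genes were called depended on how the arrays were scaled and on the block for slide or scan day. With each array set relative to its 75th percentile, 4 of the 7 were DEGs in the first period (HMGCS1, FDFT1, DHCR7 and SREBF2, all higher) and 4 in the second (HMGCS1, FDFT1, SQLE and SREBF2, all lower), while 0 of 7 were called in the total period. Of all probes 48.7% were then higher and 20% lower in the first period, 21.6% and 51.8% in the second, and 6.65% and 12.9% in the total period. Quantile normalization, with 24.5% of all probes higher and 23.3% lower in the first period and 27.1% and 25.7% in the second, called HMGCS1, FDFT1 and SREBF2 in the first, IDI1 and LSS (higher) with FDFT1 and SREBF2 (lower) in the second, and LSS alone in the total period. Cyclic loess over bright probes, added after the data had been seen, gave 3, 5 and 0 calls, where 64.8, 70.4 and 29.2% of the probes it tested were called. Under these 3 settings HMGCS1, FDFT1 and SREBF2 were higher in the first and lower in the second period, and IDI1 was higher in the second. Normexp with an offset of 50 turned the second-period signs of HMGCS1, FDFT1, SQLE, LSS and SREBF2, and called only LSS in the first, IDI1 and DHCR7 in the second and 0 genes in the total period, beside 67.6, 79.3 and 7.96% of all probes. With slide, or scan day, as a random block beside the animal, HMGCS1, FDFT1 and SREBF2 kept their first-period calls, and 0 of the 7 genes were called in the second and total periods. Of all probes 45.5% were called in the first period with slide as the random block and 66.1% with scan day. In the second period 50.1% and 45.8% were still called, but only 1.67% and 1.13% in the total period.

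HMGCS1, FDFT1 and SQLE were highest in the same animal in the early stage (animal 1), and HMGCS1, FDFT1, SQLE and DHCR7 were all highest in the late biopsy of animal 7. In the middle stage HMGCS1 and DHCR7 were highest in animal 6, FDFT1 in animal 3 and SQLE in animal 8. By Pearson correlation of levels over the 27 arrays, from 9 cattle and 3 stages, FDFT1 was the named probe most like HMGCS1 (0.81) and most like SQLE (0.80) among 6571 of the bright probes, those with a gene symbol and no missing spot (6572 for LSS). After FDFT1, SLC43A2 was most like HMGCS1 (0.73) and FARS2 most like SQLE (0.78). EIF3I (0.82) was most like FDFT1 itself, followed by HMGCS1. Other genes were nearest to the remaining members: USP19 (0.82) and STXBP5 (0.82) to IDI1, PTMS (0.82) and NRAS (0.80) to LSS, PGAM1 (0.82) and STT3A (0.79) to DHCR7, and NCAPH2 (0.87) and SH3D21 (0.86) to SREBF2. These correlations describe arrays that share stage and slide, and no member of the set was nearest to IDI1, LSS, DHCR7 or SREBF2.

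The other enzymes of the route went both ways. Of 15 measured, 11 were DEGs in the first period (5 higher, 6 lower), 10 in the second (7 higher, 3 lower) and 7 in the total period (7 higher, 0 lower), where 66.5, 71.5 and 20.1% of all probes were called. Their median log2 fold change was −0.08, 0.42 and 0.47 in the 3 periods, where all probes had 0.32, −0.27 and 0.03. With normexp 1 was higher and 7 lower in the first period (median −0.36), and 11 were higher and 1 lower in the second (median 0.67). The second-period median was 0.23 with 75th percentile scaling and 0.04 without the 3 dimmest middle arrays, and the total-period median was 0.35 with 75th percentile scaling and 0.21 under cyclic loess, where 12 of the 15 could be tested. Total-period DEGs were 3 higher and 2 lower with 75th percentile scaling, 4 higher and 2 lower with quantile normalization, 5 higher and 3 lower under cyclic loess, and 0 with slide as a random block. With slide or scan day as a random block 0 genes of any of the 5 lists around cholesterol were called in the total period, so that every total-period call of a list gene given below was lost there.

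FDPS, the farnesyl pyrophosphate synthase just upstream of FDFT1, rose in the first period by 0.97 ± 0.13 on the log2 scale in 9 of 9 cattle, and EBP, a sterol isomerase, by 0.62 ± 0.11 in 9 of 9. The desaturase SC5DL fell by 1.59 ± 0.32 in 9 of 9 cattle, the sterol reductase TM7SF2 by 0.74 ± 0.17 in 8 of 9 and the demethylase CYP51A1 by 0.72 ± 0.19 in 8 of 9. Whether rises and falls differed by place in the route was not tested.

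In the second period SC5DL rose by 2.30 ± 0.32, CYP51A1 by 1.28 ± 0.19 and TM7SF2 by 1.28 ± 0.17, each in 9 of 9 cattle. FDPS fell by 1.01 ± 0.13 and EBP by 0.85 ± 0.11, each in 9 of 9, and MVD, which makes isopentenyl pyrophosphate, by 0.51 ± 0.12 in 8 of 9. In the total period NSDHL (0.62 ± 0.21), MSMO1 (0.62 ± 0.15) and CYP51A1 (0.56 ± 0.19) rose, each in 8 of 9 cattle. With limma the adjusted *P* values of these genes lay between 2.01e-06 and 0.0435. With normexp FDPS and EBP lost their first-period calls, FDPS its second-period call, and EBP and MVD turned to slightly above 0 in the second period. NSDHL and CYP51A1 lost their total-period calls under 75th percentile scaling, quantile normalization, the median over bright probes and normexp, among others. These calls held under 7 of 14 alternatives for NSDHL and 5 of 14 for CYP51A1. Over the alternatives the smallest first-period changes were 0.52 for FDPS, 0.04 for EBP, −0.32 for SC5DL and −0.14 for CYP51A1. The smallest second-period change of FDPS was −0.365. CYP51A1 lost its first-period call with slide as a random block.

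**Figure D4:**
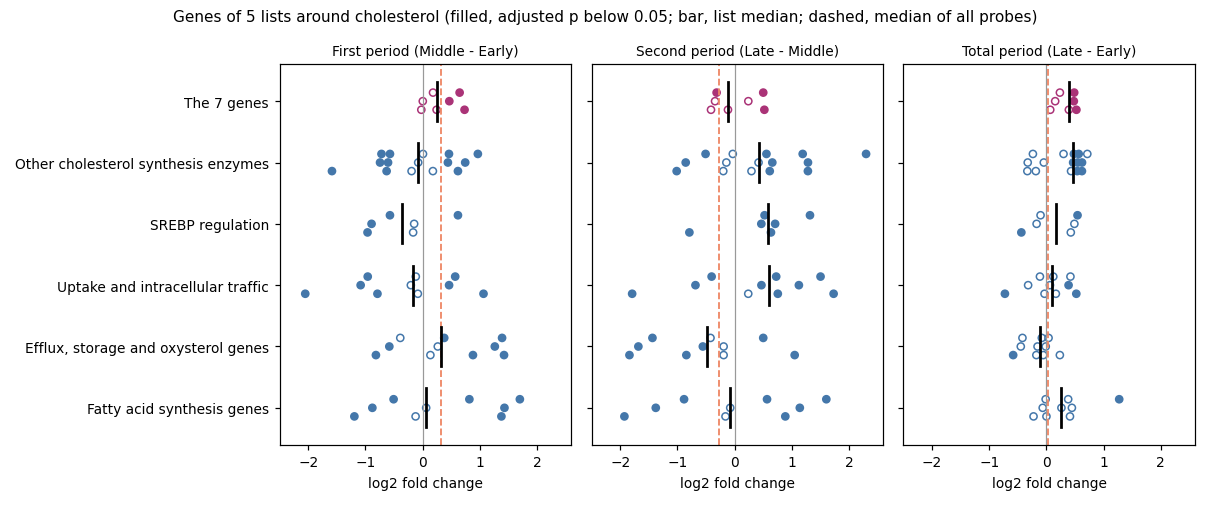
Log2 fold change of each measured gene of 5 lists around cholesterol and of the 7 genes, in each period (filled, adjusted *P* below 0.05; bar, median of the list; dashed line, median of all probes). The other enzymes of the route lie on both sides of 0 in the first period and have medians of 0.42 and 0.47 in the second and total periods, where the median of all probes is −0.27 and 0.03.

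Genes that control SREBP processing were measured for 6 of 6 names. DEGs numbered 4 in the first period (1 higher, 3 lower), in the second 6 (5 higher, 1 lower) and in the total period 2 (1 higher, 1 lower), beside 66.5, 71.5 and 20.1% of all probes. The median changes of the list were −0.37, 0.58 and 0.16. The second-period median was 0.24 with normexp, and the total-period median was 0.04 with 75th percentile scaling and 0.03 with the median over bright probes. SCAP, the escort protein of SREBP, rose by 0.62 ± 0.10 in the first period and fell by 0.79 ± 0.10 in the second, in 9 of 9 cattle each time. INSIG1, which retains SREBP in the endoplasmic reticulum, fell by 0.89 ± 0.24 in 8 of 9 and then rose by 1.32 ± 0.24 in 8 of 9.

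INSIG2 fell by 0.57 ± 0.13 in the first period in 9 of 9 cattle. MBTPS1, the first of the proteases that release SREBP, fell by 0.96 ± 0.13 in the first and by 0.44 ± 0.13 in the total period, in 9 of 9 cattle in both, and was well above background on only 6 of the 9 middle arrays. MBTPS2, the protease that acts after it, rose by 0.71 ± 0.12 in the second and by 0.54 ± 0.12 in the total period, in 9 of 9 cattle in both. SREBF1, the related factor that acts more on fatty acid genes, rose by 0.64 ± 0.20 in the second period in 7 of 9, a call that 75th percentile scaling ended. Adjusted *P* values of the changes given from this list were 1.66e-06 to 0.0245. With normexp SCAP and MBTPS1 lost their first-period calls, and with slide as a random block INSIG1 did. SREBF1 lost its second-period call with slide or scan day as a random block. Over the alternatives the smallest first-period changes were 0.03 for SCAP and −0.11 for MBTPS1, and the smallest second-period change of SREBF1 was 0.04. The total-period change of MBTPS1 was as small as −0.16, and its call was also lost with quantile normalization and without the replicate block. SCAP turned to 0.05 in the second period with normexp, and INSIG2 to 0.13 in the first with slide as a fixed block.

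Genes of cholesterol uptake and intracellular traffic were measured for 10 of 12 names, and 9 of them were well above background on all arrays of at least 1 stage. DEGs numbered 7 in the first period (3 higher, 4 lower), in the second 9 (6 higher, 3 lower) and in the total period 3 (2 higher, 1 lower), beside 66.5, 71.5 and 20.1% of all probes. With dim probes removed 9 genes were left. Of these, 2 were higher and 4 lower in the first period and 6 higher and 2 lower in the second, beside 62.6 and 67.9% of the probes left. In the total period 2 were then higher and 0 lower. The list had median changes of −0.16, 0.60 and 0.09, the last of which turned to −0.03 with 75th percentile scaling. In the first period 0 were called higher and 3 lower with slide as a random block (median −0.06), and 1 higher and 4 lower with quantile normalization. The first-period median was −0.44 with normexp. NPC1, which exports cholesterol from lysosomes, fell by 2.05 ± 0.22 in the first period and rose by 1.73 ± 0.22 in the second, in 9 of 9 cattle each time, with 6 of 9 middle arrays well above background and values as small as −0.64 and 0.49 over the alternatives. MYLIP, a ubiquitin ligase that lowers lipoprotein receptors, fell by 1.08 ± 0.26 in 8 of 9 (as little as −0.08 over the alternatives) and rose by 1.5 ± 0.26 in 9 of 9. The first-period call of MYLIP was lost with slide as a random block. STARD3, a carrier of late endosomes, was called lower in the first period and higher in the second, but was well above background on only 2 of 9 middle arrays, so that no size is given, and its changes were 0.05 and −0.06 with normexp.

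SCARB1, a receptor for high-density lipoprotein, rose by 0.46 ± 0.16 in the first period and fell by 0.40 ± 0.16 in the second, in 7 of 9 cattle each time. It was as small as 0.06 in the first period over the alternatives and turned to 0.16 in the second with normexp. OSBP, an oxysterol-binding protein, rose by 0.57 ± 0.24 in 7 of 9 and fell by 0.68 ± 0.24 in 8 of 9, and was −0.84 in the first period with slide as a fixed block. Both of these genes lost their calls in several settings. Over the total period NPC2, the lysosomal partner of NPC1, rose by 0.52 ± 0.11 and LIPA, the lysosomal acid lipase, by 0.39 ± 0.12, in 9 of 9 cattle each. The call of LIPA held under 6 of 14 alternatives and was lost with 75th percentile scaling and quantile normalization, among others. Adjusted *P* values of the changes given from this list were 6.58e-07 to 0.0398.

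Genes of efflux, storage and oxysterols were measured for 10 of 10 names, and had median changes of 0.32, −0.49 and −0.12. Of these, 7 were DEGs in the first period (5 higher, 2 lower), in the second 7 (2 higher, 5 lower) and in the total period 1 (0 higher, 1 lower), against shares of 66.5, 71.5 and 20.1% among all probes. With dim probes removed 8 genes were left, of which 3 were higher and 2 lower in the first period and 2 higher and 3 lower in the second, and the medians were 0.20 and −0.31. With normexp the 3 medians were 0.05, −0.13 and −0.05, and with 75th percentile scaling the total-period median was −0.24. NCEH1, which hydrolyzes cholesteryl esters, rose by 1.26 ± 0.17 and fell by 1.68 ± 0.17, and LCAT, which esterifies cholesterol in plasma, rose by 0.88 ± 0.14 and fell by 0.84 ± 0.14, each in 9 of 9 cattle. With normexp LCAT lost both calls. Over the alternatives the smallest changes were 0.33 and −0.46 for NCEH1 and 0.38 and −0.16 for LCAT. SOAT1, which makes cholesteryl esters for storage inside cells, fell by 0.82 ± 0.20 in the first period and rose by 1.05 ± 0.20 in the second, in 8 of 9 each time. Its fall was as small as −0.44 over the alternatives.

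The exporter gene ABCG1 rose by 0.38 ± 0.16 in 7 of 9 cattle and fell by 0.55 ± 0.16 in 9 of 9, and was −0.04 in the first period under cyclic loess. Both calls of ABCG1 were lost with normexp, with slide as a random block and under cyclic loess. The second-period call was also lost with scan day as a random block. The first-period call held under 8 of 17 alternatives and the second-period call under 10 of 14. The oxysterol receptor gene NR1H3 fell by 0.58 ± 0.18 in 7 of 9 and rose by 0.50 ± 0.18 in 6 of 9, with 6 of 9 middle arrays well above background and the rise not called under 75th percentile scaling, and the related receptor gene NR1H2 fell by 0.58 ± 0.18 over the total period in 9 of 9, not called under quantile normalization. The fall of NR1H3 was not called with slide as a random block, on the first scan day alone or without the 3 dimmest middle arrays. The rise of NR1H3 was also not called with slide or scan day as a random block or with the methods' t test. Over the alternatives the smallest changes were −0.10 for ABCG1 in the second period, −0.14 and 0.12 for NR1H3, and −0.15 for NR1H2. Adjusted *P* values of the changes given from this list were 1.2e-07 to 0.0402.

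Fatty acid synthesis genes, which SREBP1 is known to drive, were measured for 9 of 9 names with median changes of 0.06, −0.08 and 0.26. Under cyclic loess the first 2 of these medians turned to −0.26 and 0.42, and with dim probes removed to −0.12 and 0.57. The total-period median was 0.08 with quantile normalization, 0.05 with normexp and −0.03 with scan day as a random block. In the first period 7 were DEGs (4 higher, 3 lower), in the second 7 (4 higher, 3 lower) and in the total period 1 (1 higher, 0 lower), against 66.5, 71.5 and 20.1% of all probes. Only 7 of the 9 genes were well above background on all arrays of at least 1 stage. With dim probes removed these 7 were left. Of them, 2 were higher and 3 lower in the first period and 4 higher and 1 lower in the second, beside 62.6 and 67.9% of the probes left. ELOVL6, which elongates palmitate, rose by 1.70 ± 0.25 and fell by 1.93 ± 0.25, in 9 of 9 cattle each time, with values as small as 0.80 and −0.95 over the alternatives. FADS1, a desaturase, rose by 1.43 ± 0.29 in the first period in 9 of 9 and was still higher by 1.27 ± 0.29 over the total period in 8 of 9, with values as small as 0.44 and 0.43 over the alternatives.

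ACSS2, which activates acetate, the main acid of rumen fermentation, fell by 1.19 ± 0.22 in 8 of 9 cattle and rose by 1.60 ± 0.22 in 9 of 9. ME1, which supplies NADPH, fell by 0.88 ± 0.23 in 8 of 9 (as little as −0.10 over the alternatives) and rose by 1.14 ± 0.23 in 9 of 9. Both calls of ME1 were lost with slide as a random block, and the second-period call also with scan day as a random block. FASN, the fatty acid synthase, was also called lower and then higher, but only 4 of 9 middle arrays were well above background, so that no size is given, and its changes were 0.07 and −0.02 with normexp. The first-period call of FASN held under 8 of 16 alternatives, and was lost with 75th percentile scaling and with slide as a random block among others. Adjusted *P* values of the changes given from this list were 2.62e-06 to 0.00408. With slide as a fixed block 1 of 15008 probes was called in the first period.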

How the data were processed

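RNA of 27 biopsies was hybridized to 27 arrays, and the deposited intensity values are processed signals on a linear scale, which the authors made with Agilent Feature Extraction by subtracting the local background. The output names version 11.0.1.1 and the methods 9.5. Deposited with them are other values of 0 or 1 per spot, the calls of the software that it is saturated, an outlier, or well above background. The authors also deposited log2 values in the series matrix, whose offset from log2 processed signal had a median within 0.0207 of each array's 75th percentile and an SD over probes of up to 0.0286, and which served as an alternative only. The protocol in the labels names neutrophils and liver as the source of RNA, whereas titles and tissue fields name RE. For arrays, their number limits the precision.

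Of 15646 spots, 15110 were not controls and held 15008 probes. Genes are named as in the array design, and 11194 probes matched the RefSeq gene table. Tools were limma 3.58.1 and statmod 1.5.0 in R 4.3.3, and Python 3.11.15 with pandas 2.3.3 and matplotlib 3.10.9. The median log2 signal of each array was subtracted, outlier spots were left missing, and spots of a probe were averaged. Stage means and animal effects were fitted in 1 limma model. The animal was taken from the number that ends each sample title, so that the pairing over stages rests on these numbers. Arrays of the same animal had a mean correlation of 0.158 in their deviations from stage means (−0.151 to 0.461, above 0 in 24 of 27 pairs), against −0.020 for different animals. The code was tested on simulated data.

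Members and lists were chosen with earlier results of these data known. All 7 members are given, and from each list, per period, up to 3 DEGs with the largest rise and 3 with the largest fall among genes that all 9 arrays of a compared stage showed well above background. This filter passes genes by the stage in which they are high, so that falls into the dim middle stage pass through early arrays while some dim genes that rose do not. A gene of the first list that this rule names is not reported here. Most similar probes are the 2 with the highest correlation. Markers are given by list, with the brightest gene and those not well above background. Marker genes with intermediate array counts were named after their values were seen. Genes outside the members and lists, and promoter motifs, are not analysed here.

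Alternatives were 75th percentile scaling, quantile normalization, the median over bright probes, normexp with an offset of 50, dim probes removed, outlier spots kept, the series matrix, no replicate block, slide as a block (fixed, or random), slide 2 alone, the paired test of the methods, 2 stages alone, and each animal left out. Cyclic loess over bright probes, the first scan day alone, scan day as a random block, and leaving out the 3 middle arrays with under 60% of probes well above background (cattle 4, 8 and 9) were chosen after seeing the data.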

Additional observations from a re-analysis of the deposited data

Results flagged for a closer look

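Each of the 21 groups of 9 levels (7 genes, 3 stages) was checked for a highest or lowest animal set apart from the others, and 0 passed the 95% critical value of Dixon's ratio, the gap to the nearest animal over the range. The largest ratio, 0.487, belonged to HMGCS1 in the late stage, where animal 7 was at 5.73 and the nearest animal at 4.82.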

How the results depend on the processing

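For the 7 genes (list genes are not counted here), 82 of 133 values under other alternatives of changes called in the report kept direction and call, 48 kept only the direction and 3 turned. Of changes of the 7 genes not called, 134 of 179 stayed so, 21 became called and 24 turned. With an animal left out, 62 of 81 called values kept their call and 19 lost it, and of 108 not called 97 stayed so, 5 became called and 6 turned. The number of the 7 genes called was 3 in each period. In the first period it was 1 with normexp (67.6% of all probes called), 0 with slide as a fixed block (0.00666%) and 0 on slide 2 alone (0.0467%), which hold few degrees of freedom. In the second it was 0 with slide as a random block (50.1%), 0 with scan day as a random block (45.8%) and 5 under cyclic loess (70.4%). In the total period it was 0 with 75th percentile scaling (19.5%), the median over bright probes (19.5%), normexp (7.96%), the series matrix (19.5%), slide as a random block (1.67%), cyclic loess (29.2%) and scan day as a random block (1.13%), and 1 with quantile normalization (14.4%). With an animal left out it was 3 to 3 in the first, 2 to 4 in the second and 1 to 3 in the total period. Without the replicate block for pairing it was 3, 3 and 3, and no call of the 7 genes changed. Apart from the fits on few arrays, the cause was not tested. Slide as a fixed block, slide 2 alone and the first scan day give no value for the second and total periods and could not be fitted there, since late arrays share no slide or scan day with other stages. LSS was too dim for cyclic loess.

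Some directions turned, and the cause was not tested. IDI1 in the first period was −0.0169 with quantile normalization, −0.51 with normexp, −0.17 on the first scan day, −0.0722 with scan day as a random block and −0.12 without the 3 dimmest middle arrays. SQLE in the first period was −0.24 with normexp and −0.16 with slide as a fixed block. LSS in the first period was 0.0427 with 75th percentile scaling, 0.0314 with the median over bright probes, 0.14 with normexp, 0.0424 in the series matrix and 0.0716 with slide as a fixed block. With normexp DHCR7 (−0.18) and SREBF2 (−0.12) turned in the first period, and HMGCS1 (0.44), FDFT1 (0.22), SQLE (0.58), LSS (−0.0587) and SREBF2 (0.46) in the second. SQLE in the total period was −0.0543 with 75th percentile scaling, −0.11 with quantile normalization, −0.067 with the median over bright probes, −0.0521 in the series matrix, −0.12 under cyclic loess and −0.0847 with scan day as a random block. SREBF2 in the total period was −0.0378 with quantile normalization and −0.0435 under cyclic loess. With an animal left out IDI1 in the first period ranged from −0.12 to 0.0725, LSS in the first from −0.0641 to 0.0606 and SQLE in the total period from −0.0019 to 0.14.

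Among all DEGs the share that was higher was 68.0, 37.7 and 55.6% in the 3 periods. It was 51.3, 51.3 and 49.6% with quantile normalization, 50.8, 50.3 and 47.5% under cyclic loess, 50.2, 58.3 and 64.5% with dim probes removed, 70.9, 29.4 and 34.1% with 75th percentile scaling, 70.3, 29.4 and 31.5% with the median over bright probes, 67.2, 41.0 and 67.2% with normexp and 71.0, 29.5 and 34.5% in the series matrix. Low signal over background in the middle stage limits LSS most, with 4 of 9 arrays well above background.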
